A study of Mus musculus with 26 samples.

Results

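Of 315 microRNA (miRNA) assays run on mouse cells by stem-loop RT-qPCR, 40 were selected on their group medians as highest in primary hepatocytes. Each assay gives a threshold cycle (Ct), the PCR cycle at which the signal crosses a threshold, so that a lower Ct means more RNA. A level was a reference Ct minus the assay's Ct, where the reference averaged those assays of a plate set (plates A and B together, C, and D) that every sample detected. It is thus a log2 value if each cycle doubles the product. A Ct above 35 or absent was set to 35. Members had a spread of at least 3 between the highest and lowest of 5 group medians (untreated iPSC, ESC, fibroblasts, islets, hepatocytes). Their hepatocyte median also exceeded the next highest by at least 1, a difference called the margin below. In all 43 assays passed, and the rule set aside 3 of them (B01, C94 and C24). Since these values chose the members, all comparisons with hepatocytes below are descriptions with no test.

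Mature miRNAs are short RNAs that guide Argonaute proteins to messenger RNAs and lower their output. Hepatocytes, the main metabolic cells of the liver, are known for a miRNA pool in which a liver-specific miRNA is very abundant, together with miRNAs shared with gut and pancreas, which also arise from endoderm. The deposited rows carry plate positions and not miRNA names, so positions stand for assays here, no sequence or function is given for a member, and the hepatocyte label was not checked against marker miRNAs.

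Primary preparations from adult C57BL/6 mice gave 3 samples of hepatocytes and 3 of pancreatic islets. Induced pluripotent stem cells (iPSC) were 5 clones derived from tail-tip fibroblasts, and 5 samples of such fibroblasts were profiled beside them. D3 and R1, both embryonic stem cell (ESC) lines, gave 3 samples each. iPSC and ESC grew with leukemia inhibitory factor on inactivated mouse embryonic fibroblasts, and the share of feeder RNA in those samples was not tested. Feeder-deprived iPSC of clones 2 and 3 received activin A, a signalling protein that drives differentiation towards endoderm, for 5 days (n = 2 samples per clone). Apart from the clones, no label tells whether a group's samples were separate animals or cultures, so p-values reflect only sample-to-sample spread, which may be technical. The islet and hepatocyte samples are bulk preparations, in which fewer cells of a type and less RNA per cell cannot be told apart. Between 210 and 219 assays had a Ct below 35 in a hepatocyte sample, against 267 to 273 in islets, 241 to 275 in iPSC and ESC and 187 to 272 in fibroblasts. Fibroblast replicate 5 held the 187.

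The members were measured in hepatocytes about as often as other assays: 24 of the 40 had a Ct below 35 in all 3 hepatocyte samples, against 57.8% of all 315 assays. Of the others, 5 had one in 1 or 2 of them, and 11 in none. All 24 measured members lay on plates A (10), B (9), C (3) and D (2). The 16 others lay on plates C (10) and D (6), and none on A or B. D19 and C16 had no Ct in any of the 26 samples, and C52, C87 and C90 had none below 35 anywhere. The map of Ct by sample shows these rows as grey or dark throughout.

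**Figure D1:**
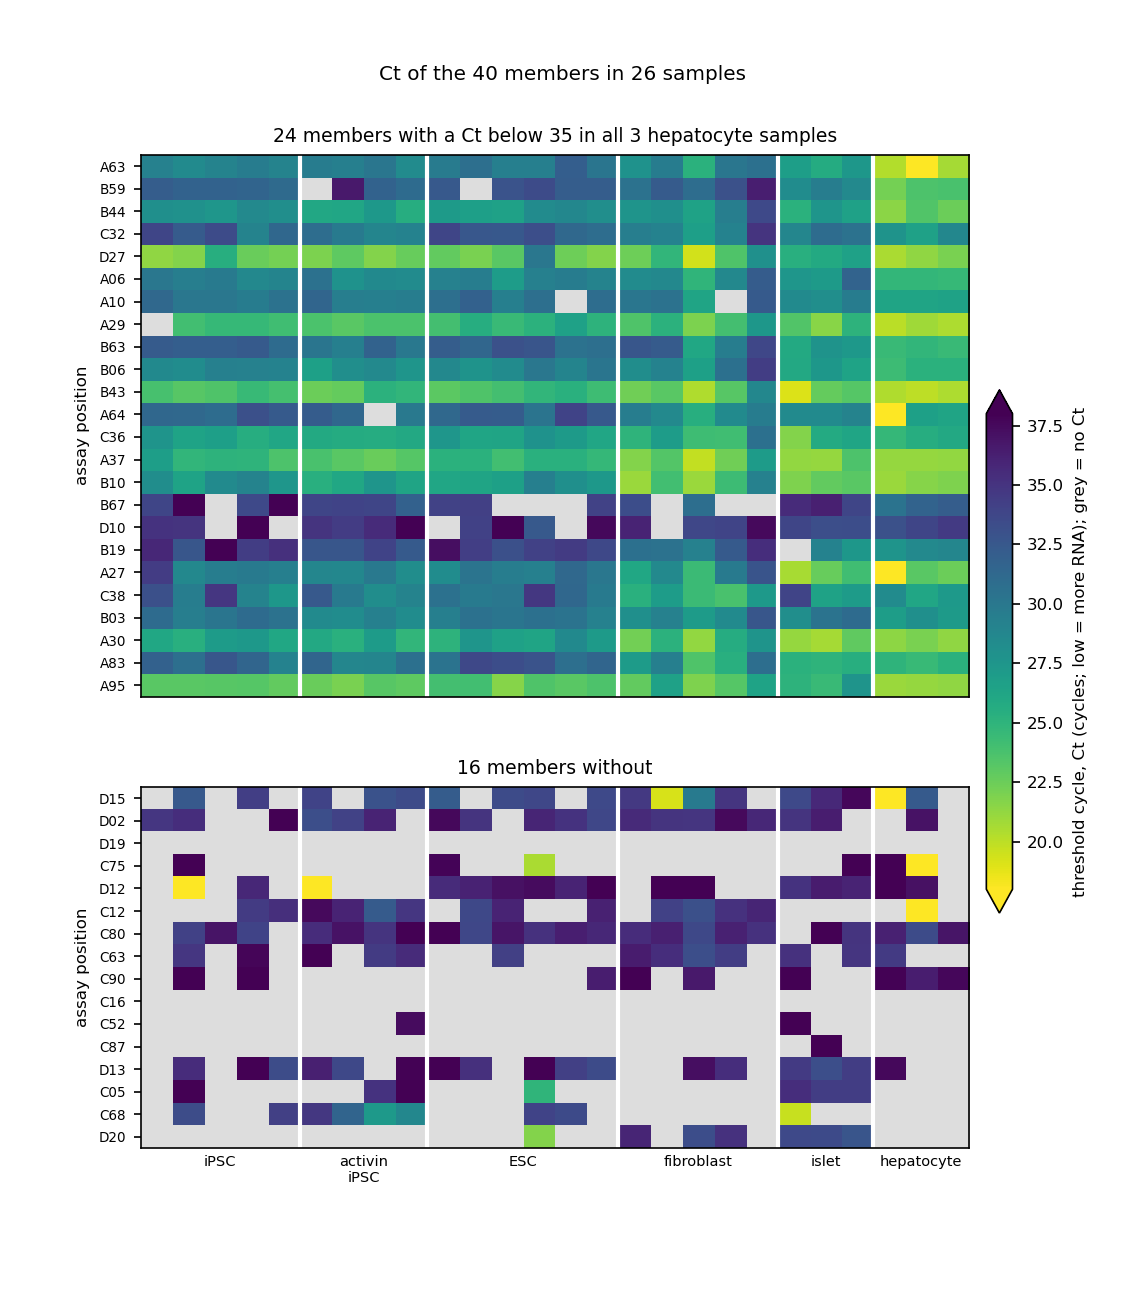
Ct in cycles of the 40 members (rows, by plate position, in order of margin) in 26 samples (columns, by group). Light cells have a low Ct and more RNA, and grey cells have no Ct; the 16 lower rows are mostly grey or dark in hepatocytes.

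For the 11 members without a Ct below 35 in any hepatocyte sample, the hepatocyte level was the reference Ct minus the limit of 35. On plate C the reference Ct, a mean of 26 assays, was 28.5 ± 0.741 (SD, n = 3) in hepatocytes and 26.6 ± 0.729 (SD, n = 3) in islets. On plate D, with 9 reference assays, it was 28.9 ± 1.08 in hepatocytes and 26.8 ± 0.392 in islets (SD, n = 3 each). An assay without any Ct on plate C therefore had a level of -6.40 in hepatocytes and between -9.76 and -8.26 in the other 4 groups, which gave it a margin of 1.86. Such an assay on plate D had a level of -5.66 in hepatocytes and a margin of 2.55. On plates A and B, with 87 reference assays, the median reference Ct of hepatocytes lay below that of iPSC by 0.78 cycles and above that of islets by 1.33. There an assay without any Ct gained no margin. The plot of reference Ct by plate set shows the hepatocytes above every other group median on plates C and D only.

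**Figure D2:**
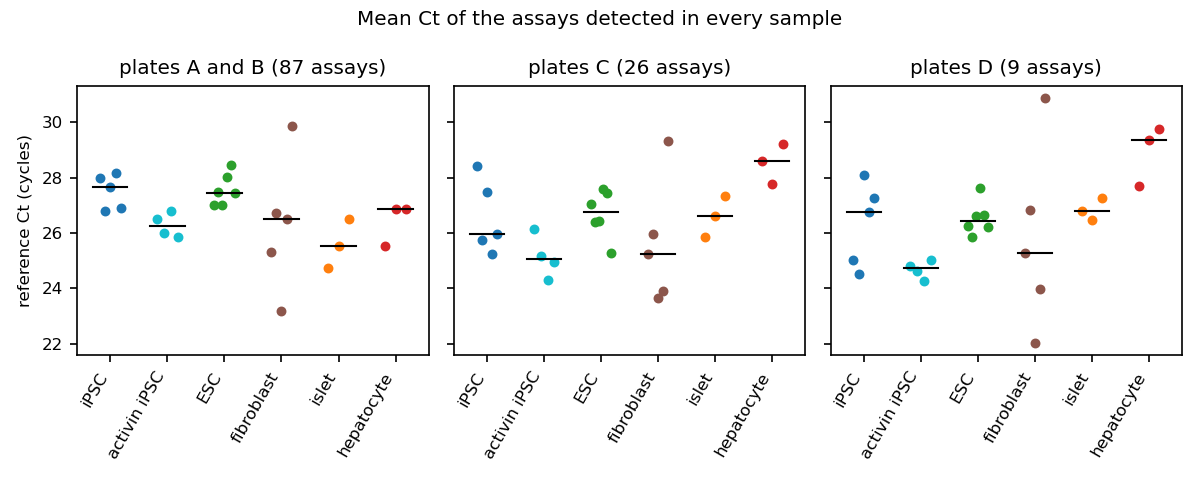
Reference Ct in cycles (mean over the assays with a Ct below 35 throughout) for each sample (points) with the group median (line), by plate set. Hepatocytes have the highest group median on plates C and D, at 28.6 and 29.3 cycles, but not on plates A and B, at 26.9.

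The 5 members with a Ct below 35 in some hepatocyte samples were D15, C75, C12, C80 and C63. D15 had the fourth largest margin of the 40 members, 4.07. Its Ct was 3.36 in hepatocyte replicate 1 and 32.3 in replicate 2, and replicate 3 had none. It also reached 19.2 in fibroblast replicate 2 and 29.8 in fibroblast replicate 3, against 34.7 and 34.9 in replicates 1 and 4 and none in replicate 5. Islets gave 33.6, 35.7 and 37.6, ESC between 32.2 and 33.7 in the 4 of 6 samples with a Ct, and iPSC 32.4 and 34.3 in clones 2 and 4 only. The 3 hepatocyte samples of D15 thus ran from the lowest Ct of the assay to none, and in level fibroblast replicates 2 and 5 fell within their range, replicate 5 at the limit. C75 and C12 had a Ct below 35 in replicate 2 only, at 17.5 and 12.1, C80 in replicate 2 only, at 33.4, and C63 in replicate 1 only, at 34.6.

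Among the 24 measured members the hepatocyte level exceeded that of iPSC by a median of 4.10 (1.07 to 7.63), of ESC by 4.14 (1.29 to 8.93), of fibroblasts by 3.97 (1.53 to 8.81) and of islets by 3.27 (1.10 to 7.13). Their margin over the next highest group had a median of 2.36, and it was 3 or more in 9 of 24. The SD of the level over the 3 hepatocyte samples had a median of 0.66, against 0.77 for all 182 assays measured in every hepatocyte sample. It was under 1 in 21 of the 24, and smaller than the margin in 22. In 13 of 40 members, all of them measured ones, every hepatocyte level lay above every untreated sample of the other 4 groups. Across all 315 assays this held for 5.08%, a contrast that the rule used. Of the 24, 17 had a Ct below 35 in all 26 samples and so were themselves part of the reference.

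A63 had the largest margin. Its Ct was 20.3, 17.9 and 20.7 in the 3 hepatocyte samples and 26.8, 25.7 and 27.4 in the islets. In iPSC clones it was 29.2, 28.5, 29.05, 29.6 and 29.1, in fibroblasts 27.8, 29.6, 25.2, 30.1 and 30.6, and in ESC between 29.4 and 32.04 with a median of 29.97. Hepatocytes overlapped no other group at A63, and islets came next. The median level was 6.17 in hepatocytes and -0.95 in islets, a margin of 7.13 that corresponds to 139.6-fold at a doubling per cycle. Without hepatocyte replicate 1 the margin was 8.50 and the fold 363, and without replicate 3 they were 8.05 and 265. Without hepatocyte replicate 2 they fell to 6.70 and 104, and in raw Ct to 6.51 and 91.2.

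B59 followed with a margin of 6.78. Its Ct was 22.2, 23.6 and 23.7 in hepatocytes and 28.2, 29.5 and 28.6 in islets. The iPSC clones gave 32.1, 31.7, 31.7, 31.5 and 31.05, and the fibroblasts 30.5, 32.3, 30.9, 33.1 and 36.4. In ESC, 5 of 6 samples had a Ct, between 32.1 and 33.4. B59 was the most even member in hepatocytes, with levels of 3.33, 3.28 and 3.15, and no hepatocyte sample came near another group.

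B44 had a margin of 4.26 over ESC. Its Ct was 21.4, 23.4 and 22.5 in hepatocytes, 25.2, 27.6 and 26.6 in islets and between 26.5 and 28.8 in ESC, with a median of 27.6. The iPSC clones gave 28.05, 27.9, 27.5, 28.6 and 28.1, and the fibroblasts 27.7, 28.03, 26.5, 29.5 and 33.6. At B44 the islets, iPSC and ESC had near-equal median levels of -0.46, -0.45 and -0.19, with overlapping samples, and fibroblasts stood lower at -2.99.

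C32 and D27 completed the measured members with a margin above 4, and their raw Ct set hepatocytes apart less than their level did. C32 had a Ct of 27.7, 26.5 and 28.7 in hepatocytes, 28.8, 30.9 and 30.5 in islets, and 29.5, 29.1, 26.7, 29.2 and 34.98 in fibroblasts. Its Ct was 33.8, 32.2, 33.4, 29.1 and 31.3 in iPSC and between 30.8 and 33.9 in ESC, with a median of 32.5. Fibroblast replicate 3, at 26.7, thus reached the hepatocyte range in raw Ct, and the margin of 4.03 was 1.43 without a reference.

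D27 had a Ct of 20.5, 21.3 and 22.1 in hepatocytes and 25.4, 25.8 and 26.5 in islets. The iPSC clones gave 21.3, 21.7, 25.5, 22.6 and 22.2, the fibroblasts 22.5, 24.9, 19.4, 23.5 and 27.98, and ESC between 21.7 and 30.03 with a median of 22.6. Only the islets lay clear of the hepatocytes in raw Ct. The margin of 4.01 came with the plate D reference and was 1.15 with 1 reference over all plates, 0.85 without a reference, 0.40 with a limit of 32 cycles and -0.65 with quantile normalization, which put another group ahead.

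By level, the measured members fell into those with islets next to hepatocytes and those with pluripotent cells next. Islets came second for 15 of 24, ESC for 4, iPSC for 4 and fibroblasts for 1, A64. Islets and iPSC were close at some of the 15, at -3.14 and -3.22 for A10 and -1.19 and -1.47 for B06. In raw median Ct fibroblasts came second at C32, C36 and C38. For 9 of the 15 with islets second in level, medians ran from hepatocytes through islets and fibroblasts down to both pluripotent groups. They were A27, A83, C38, B10, A30, B19, B63, C32 and A37. Neighbouring medians were close at some of them, with islets and fibroblasts at 3.48 and 3.39 for A37. For C38 they were 0.13 and -0.06, with islet replicate 1 at a level of -8.04. A27 had a median level of 4.41 in hepatocytes and 2.87 in islets, against -2.59 in ESC, -1.88 in iPSC and -1.81 in fibroblasts. A83 had 1.64 and 0.54 against -0.89 in fibroblasts, -3.80 in iPSC and -4.44 in ESC. Every hepatocyte level lay above every islet level at 4 of these 9, B10, B63, C32 and A37, and the groups overlapped at the other 5. Among all 24 measured members the hepatocytes cleared the islets at 17. This held for 23.2% of all 315 assays and 22.5% of the 182 measured in hepatocytes, in a contrast that the rule used. The margin was 3.19 for B63, 2.82 for B06, 2.22 for C36, 2.18 for A37 and 2.14 for B10. A10, with 0.36 in hepatocytes and -3.73 to -3.14 elsewhere, also had islets second, and so did D10, at 1.82, whose hepatocyte Ct of 33.8 ± 0.790 (SD, n = 3) was close to the limit.

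Where pluripotent cells came second in level, islets had the lowest level at 6 of 8 members, and fibroblasts at B43 and B44. This split changed without a reference. In raw median Ct the runner-up was islets at A06, A29, B43 and B44, and fibroblasts at B03. Only A95, B67 and D27 kept a pluripotent group there. A95 had median levels of 5.53 in hepatocytes, 4.45 in iPSC, 4.17 in ESC, 2.54 in fibroblasts and -0.34 in islets. B03 and B67 were also lowest in islets, at -4.52 and -9.46, the latter being the value of an assay at the limit. A29 was at 6.04 in hepatocytes, 2.79 in iPSC, 2.49 in ESC, 1.85 in fibroblasts and 1.39 in islets, with no Ct in iPSC replicate 1. A06 stood at 2.11 in hepatocytes and between -2.77 and -1.46 in the other groups. B43 had a median level of 6.42 in hepatocytes and 2.97 to 3.63 elsewhere. Its islet replicate 1, with a Ct of 19.03, lay below the hepatocyte Ct of 20.4, 19.99 and 20.5.

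**Figure D3:**
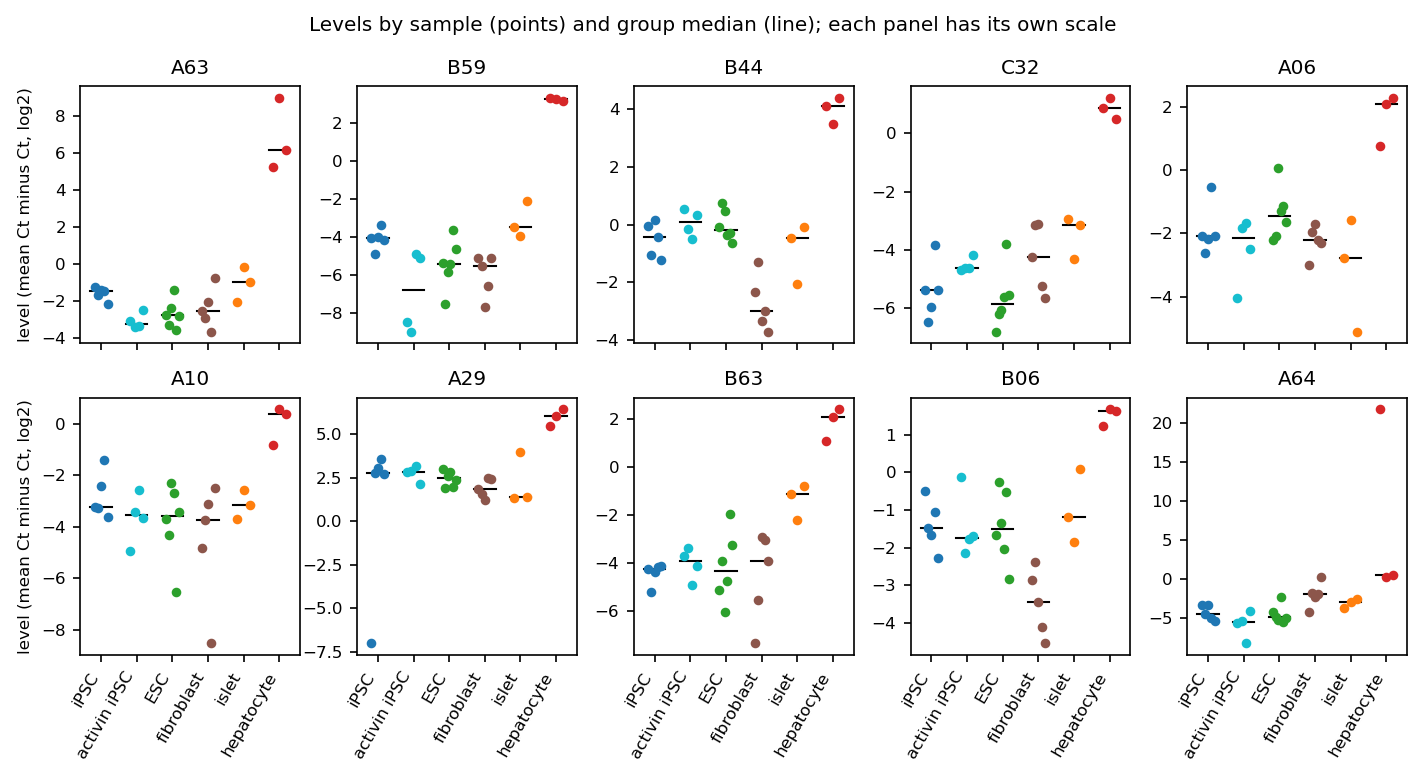
Levels (reference Ct minus Ct, log2) of 10 members in every sample (points) with group medians (lines), one panel per assay with its own vertical scale. These 10 stayed members under all 29 settings of the rule; the 3 hepatocyte points lie above all others in every panel except A64, where a fibroblast sample reaches 0.27 against a lowest hepatocyte level of 0.22.

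The rule was rerun under 28 other settings of reference, limit and samples. A63, B59, B44, C32, A06, A10, A29, B63, B06 and A64 stayed members in all of them, 10 of the 24 measured members. A64 had a Ct of 3.74 in hepatocyte replicate 1 and 26.7 and 26.3 in the others, so its hepatocyte SD was 12.3. Nearest inside the margin of 1 were A95 and A83. A95 had a Ct of 21.0, 21.2 and 21.3 in hepatocytes and 23.1, 23.1, 23.2, 23.2 and 22.8 in iPSC, with a margin of 1.07. In the other groups A95 had 25.1, 24.4 and 27.7 in islets, 22.8, 26.6, 21.9, 23.2 and 26.4 in fibroblasts, and between 21.7 and 24.05 in ESC with a median of 23.5. All 3 hepatocyte samples had a lower Ct than any of these. A83 had 25.0, 24.5 and 25.2 in hepatocytes and 25.2, 25.0 and 25.5 in islets, with a margin of 1.10. The fibroblasts gave 27.02, 29.4, 23.5, 25.4 and 30.7 at A83, the iPSC 31.8, 30.7, 32.7, 31.5 and 29.1, and ESC between 30.4 and 33.7 with a median of 32.2. Hepatocytes, islets and fibroblasts thus overlapped in Ct, and every pluripotent sample had a higher Ct than the hepatocytes and islets. Nearest outside were C44, with no Ct in any hepatocyte sample and a margin of 0.94, and C25, at 0.81. C44 had no Ct in the fibroblasts either, 35.7, 39.2 and none in islets, 35.9, none, 36.0, 34.5 and 34.1 in iPSC, and between 32.5 and 35.1 in the 4 ESC samples with a Ct. C25 had a lower Ct in the islets, 20.4, 21.1 and 21.1, than in the hepatocytes, 21.8, 21.4 and 23.5. Its Ct was 29.2, 26.1, 23.2, 21.6 and 29.1 in fibroblasts, 28.2, 26.4, 27.3, 25.8 and none in iPSC, and between 25.5 and 27.6 in ESC with a median of 26.5. The member nearest the spread of 3 was A37 at 3.11, and 6 assays with a sufficient margin missed that spread, the closest being D04 at 2.92.

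Very low Ct values entered 4 members in hepatocytes. Of 7240 measured values 26 were below 15 cycles, and 11 of these came from hepatocyte replicate 1. Members with such a hepatocyte value were A64 and D15 (above), A27 with 12.4 in replicate 1 against 23.1 and 22.5, and C12 with 12.1 in replicate 2. With all values below 15 left out, the rule chose 39 assays, 35 of them among the 40, and all 24 measured members were kept.

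Over islets, raw Ct and RNU6 gave the measured members a smaller median lead than the mean Ct did. Over the next highest group, the lead in raw median Ct was larger than the margin at A95, 1.98 against 1.07, and at B67 and B03. It was smaller than the margin at the other measured members. Without any reference, 20 of the 24 measured members and 1 of the 16 others had their lowest median Ct in hepatocytes, against 9.21% of all assays. In raw Ct every hepatocyte sample lay below every untreated sample of the other groups for 8 of 40 members, against 2.86% of all assays. These 8 were A63, B59, B44, A06, A29, B63, B06 and A95. The exceptions to the lowest median were A30, C36, C38 and D10. Both background shares come from the contrast that the rule used.

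Relative to RNU6, the U6 small nuclear RNA that the authors normalized to, 15 of 24 measured members were higher in hepatocytes than in islets, by a median of 0.41 on the log2 scale over the 24. All 24 were higher relative to the mean Ct (median 3.54), 22 in raw Ct (2.40) and 23 with quantile normalization (3.53). Over all 40 members the counts were 39 relative to the mean Ct, 25 relative to RNU6, 27 in raw Ct and 35 with quantile normalization, against 48.9%, 21.9%, 22.5% and 52.4% of all 315 assays. The shares among all 182 assays measured in every hepatocyte sample were 19.8% relative to RNU6, 53.3% relative to the mean Ct, 31.3% in raw Ct and 59.3% with quantile normalization. Relative to RNU6 the difference was 4.63 for A63, 3.53 for C32, 3.24 for B59, 2.68 for D27 and 2.17 for A95. It was 7.36 for A64, whose replicate 1 had the Ct of 3.74. It was -0.04 for A10 and 0.01 for B63, and -2.37 for A30, -2.33 for D10 and -2.06 for A83. The 15 became 8 without hepatocyte replicate 1 and 10 without islet replicate 2, and 19 without islet replicate 3. The median over the 24 turned to -0.72 without hepatocyte replicate 1, to -0.43 without islet replicate 2 and to -0.03 without islet replicate 1, and it was 1.49 without islet replicate 3. It was 1.03 without hepatocyte replicate 2 and 1.06 without hepatocyte replicate 3. On plates A and B, RNU6 Ct was lower in hepatocytes than in islets by 2.38 cycles, and by 0.78 without islet replicate 3, while the mean Ct was higher by 0.83. On plate C, which holds C32, C36 and C38, RNU6 Ct was higher in hepatocytes by 1.12 cycles and the mean Ct by 1.92. On plate D, with D10 and D27, RNU6 Ct was lower by 1.93 and the mean Ct higher by 2.09. Among the groups set against hepatocytes, RNU6 values could be joined for islets only, so its effect on the lead over the other groups was not analysed here.

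**Figure D4:**
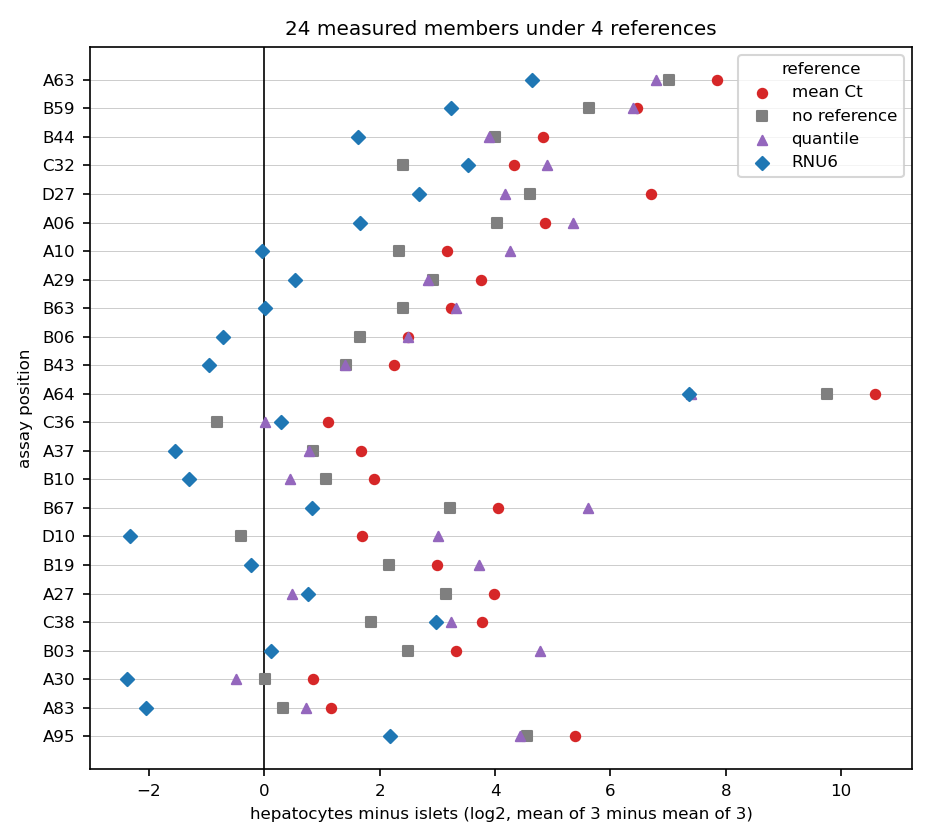
Difference between hepatocytes and islets (mean of 3 minus mean of 3 samples, log2) for the 24 measured members under 4 references. All 24 points relative to the mean Ct lie above 0, and 15 of 24 relative to RNU6 do.

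The authors' deposited table gives islets minus hepatocytes, so that a positive value means less RNA in islets. Of the 32 members with a value in the authors' deposited table, 20 were positive, against 19.6% of all 286 values. The 24 measured members had 15 positive values in the authors' deposited table, with a median of 0.41. RNU6 was recovered from that same table, so these values largely restate the RNU6 comparison above and are no separate evidence. That table skips samples without a Ct instead of setting them to a limit. For D13, on plate D, the authors' deposited table gives -9.71, where only hepatocyte replicate 1 had a Ct, at 37.6. For D15 it gives 14.91, with the Ct of 3.36 in the same replicate. The recovered plate D RNU6 Ct, known up to a constant, was -5.21 in that replicate, against 1.43 and 0.89 in the other hepatocyte samples.

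The levels of the activin-treated iPSC at the members were not used to choose them, whereas those of the untreated iPSC were. The treated samples shared in setting which assays formed the reference. They were also feeder-deprived, whereas untreated iPSC grew on feeders, so activin and feeder removal cannot be told apart in this comparison. No member changed past the threshold: limma called 0 of 28 tested members and 1 of 284 assays (0.352%). At an unadjusted p under 0.05 it held 1 member, B59, against 8.8% of all assays. The median log2 difference was -0.57 over the 28 members and -0.11 over all assays. Of the 28, 18 had an estimate below 0, and of all assays 53.9%. The other 12 members had a Ct below 35 in under 50% of the samples of both groups and were not tested.

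B59 had a Ct of 31.7 and 31.0 in the treated samples of clone 3, and 36.7 and none in those of clone 2. Before treatment it was 31.7 in both clones. Its log2 difference was -2.77 (SE 0.90, limma adjusted p 0.191), and the treated samples of clone 2 lay at the limit, so the size depends on it. Treated levels were below the untreated sample of the same clone in all 4 samples, by a mean of -3.84 in clone 2 and -0.98 in clone 3. A63 came next, with -1.49 (SE 0.87, limma adjusted p 0.860) and a Ct of 29.6, 29.4, 30.1 and 28.3 in the treated samples. B43 was at -1.21 (SE 0.81, limma adjusted p 0.878). The 95% intervals ran from -4.64 to -0.89 for B59, from -3.30 to 0.32 for A63 and from -2.91 to 0.48 for B43.

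Relative to RNU6 the median moved to 1.49 over the 28 members and 1.68 over all assays. Then 22 of the 28 had an estimate above 0, against 89.1% of all assays, and A63 and B43 turned to 0.025 and 0.30, with B59 at -1.25. limma called 0 members there too, and 0 of 284 assays. At an unadjusted p under 0.05 there was 1 member, C32, against 35 of the 284 assays. C32 was at 4.42 (SE 1.91, limma adjusted p 0.321). On its plate, C, the recovered RNU6 Ct is known up to a constant. It was 8.22 in replicate 1 of treated clone 3 and -2.55 to 0.38 in the other treated samples. At all 24 measured members every treated sample lay below every hepatocyte sample in level, against 30.8% of all assays and 36.3% of those measured in hepatocytes. The rule had chosen the members for a hepatocyte level above that of iPSC, so nothing is read from this count. The treated median lay nearer to the hepatocyte median than the untreated one did at 10 of 24, a share close to the 42.9% of the assays measured in hepatocytes and the 40% of all assays. With 2 clones as replicates, the 95% intervals reached a median of 1.99 to either side of the estimate. Their sample-to-sample spread was estimated over all groups, hepatocytes included. The very low hepatocyte Ct values of A64, D15 and C12 thus entered their half-widths of 7.06, 10.9 and 7.25. With the compared groups alone the SE was 0.96 for B59, 0.50 for A63 and 0.72 for B43. The interval lay within 2 of zero in log2 for 5 of 28, so a 4-fold change was not excluded for the others.

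The difference between the ESC lines D3 and R1 was not used by the rule, which took their joint median and required reference assays to be detected in both. limma called 0 of 26 tested members and 0 of 273 assays (0%) between them, and 0 members had an unadjusted p under 0.05, against 1.1% of all assays. The median difference, D3 minus R1, was -0.13 over the members and -0.12 over all assays, and 15 of 26 estimates were below 0, against 57.5%. The smallest p-values belonged to B59 at -1.69 (SE 0.88), C32 at -1.37 (SE 0.76) and B63 at -1.72 (SE 0.96), each with a limma adjusted p of 1.00. For B59 this includes D3 replicate 2, which had no Ct. The 95% interval, again with a spread estimated over all groups, lay within 2 for 6 of the 26 members.

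**Figure D5:**
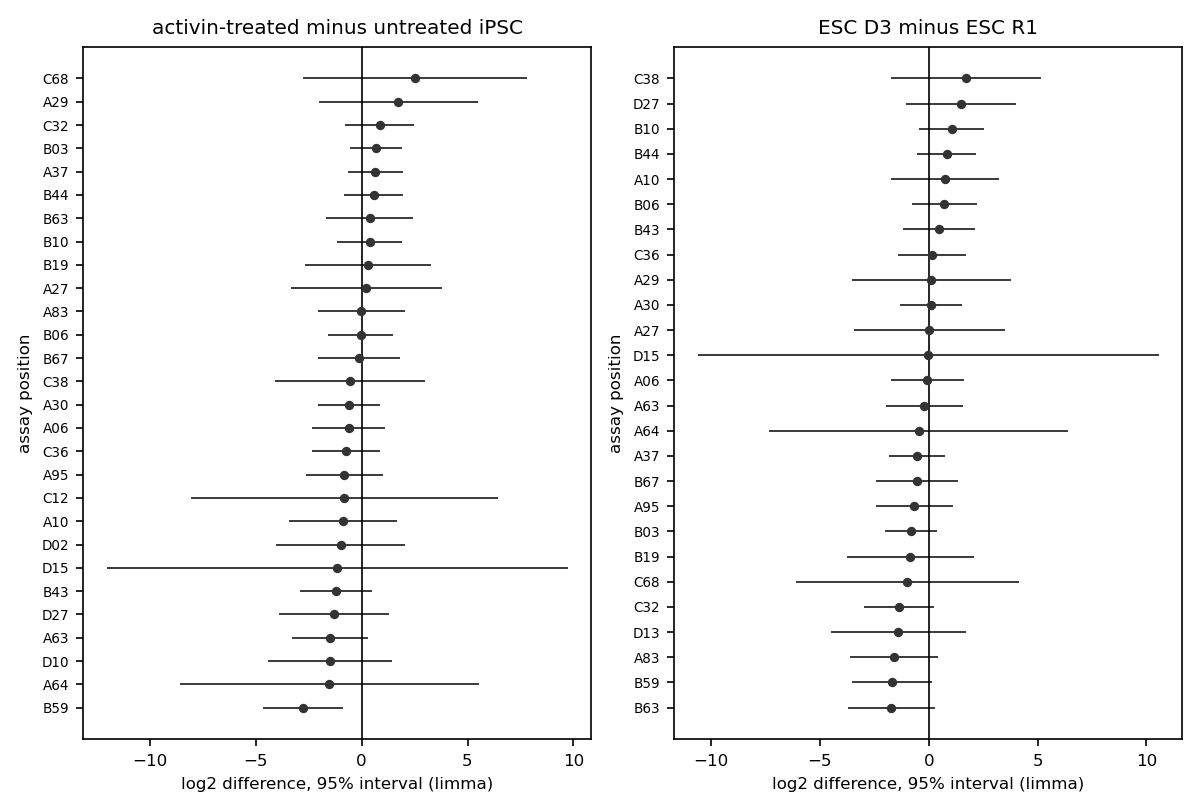
Log2 differences with 95% intervals (limma) of the members tested, 28 for activin-treated minus untreated iPSC (left) and 26 for ESC line D3 minus R1 (right). All intervals cross 0 except that of B59 after activin, from -4.64 to -0.89, which did not pass after adjustment.

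By position, 10 of the 40 members stood next to another member in the numbering, in the pairs A29 and A30, A63 and A64, B43 and B44, D12 and D13, and D19 and D20. The share that a random choice of positions would give was not computed, so nothing is read from this count. The first 3 pairs are measured members and the last 2 are not. Within A29 and A30 the runner-up in level differed, iPSC for A29 and islets for A30. It also differed within A63 and A64, islets and fibroblasts, while B43 and B44 both had pluripotent cells next. In raw median Ct, islets came next at each member of the first 3 pairs.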

How the data were processed

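Ct values of 315 assays in 26 samples were used as the authors deposited them, in PCR cycles and without normalization. Per the labels' protocols, reverse transcription started from 5 ng of RNA and RNU6 served for normalization. Which software gave the Ct values is not given in the sources used here. A second table, deposited by the authors, holds log2 differences between group means of RNU6-normalized Ct. Of 8190 values 950 (11.6%) had no Ct and 658 were above 35, and all of these were set to 35. The members and lists were chosen with earlier results of these data known, and the division into 24 and 16 members was made after their values were seen. All members may be named. Values in every untreated sample, with ESC as a range, are given for the 6 with the largest margin and the 2 nearest the margin threshold on each side, and full statistics for the 3 smallest p-values of each test.

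RNU6 was recovered by least squares from the Ct values and the authors' deposited table, for 20 samples, up to a constant per joined groups. The largest residual was 4.0e-09 cycles. Group means were fitted by limma 3.58.1 in R 4.3.3 over all 26 samples, with the 2 treated samples of a clone averaged (24 columns). Assays needed a Ct below 35 in 50% of either group. P-values were adjusted by Benjamini-Hochberg over all assays tested, at 0.05. Both steps were tested on simulated data. The shifts simulated for limma were larger than the member estimates given here, so its power for smaller changes was not tested. The mean Ct replaced RNU6 as the main reference, since the rule uses it and RNU6 covers no ESC. The labels pair treated with untreated iPSC through the clone. Differences between clones 2 and 3 before and after treatment correlated at -0.141 over 198 assays, and a block on clone is among the alternatives. Tables were made with Python 3.11.15, numpy 2.4.6, pandas 2.3.3 and matplotlib 3.10.9.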

Additional observations from a re-analysis of the deposited data

Results flagged for a closer look

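Among 22 sets of 5 iPSC or fibroblast samples looked at, 2 held a sample far from the others, where chance gives about 1 in 20. These sets did not cover all members, so other such samples exist. One is A29 in iPSC replicate 1, at the limit with -7.01 against 2.73 to 3.57 in the other clones. The 2 in the sets were at A06 and C25. The level of A06 in iPSC replicate 4 was -0.52, against -2.61 to -2.07 in the other clones. C25, outside the members, had no Ct in iPSC replicate 5 and a level at the limit of -9.02, against -0.66 to 0.22. For A95 both treated samples of clone 2 rose above and both of clone 3 fell below their untreated sample, with mean changes of 0.25 and -1.23. The difference of -1.49 was not tested, and each clone had 1 untreated sample.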

How the results depend on the processing

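The rule gave 40 assays, and lists of between 28 and 39 with other references or limits. It gave 16 without a reference and 24 when each hepatocyte sample had to have a Ct below 35. Of the 40 members, 17 remained with quantile normalization and 22 with 1 mean Ct over all plates. Limits of 32 and 40 cycles kept 26 and 32 of them, and raw Ct without a reference kept 15. Leaving out 1 sample in turn gave 34 to 50, the 50 without hepatocyte replicate 2, with 34 of the 40 among them. Without hepatocyte replicate 3, 26 of the 40 remained. The rule could not be run relative to RNU6, whose constant between groups is not fixed. D27 turned to a margin of -0.65 with quantile normalization. Higher in hepatocytes than in islets were 39 of 40 members, 25 relative to RNU6, 24 of the 24 measured ones, and 38 to 40 without 1 sample in turn. For activin, the 1 assay called is no member. Not averaging the clones gave 4 calls, quantile normalization 3, a limit of 32 gave 2, missing values 4, a Ct in every sample 3 and the compared groups alone 2. RNU6, 1 mean Ct over all plates and no filter gave 0 each. Leaving out 1 sample gave 0 to 5, the 5 without replicate 1 of treated clone 3. With the clone as a replicate block there were 0 calls, and 0 with the clones crossed. Members called were 0 under each of these settings. Relative to RNU6, A63 turned to 0.025 and B43 to 0.30. For D3 against R1, every setting gave 0 calls, the replicate block included. Same-numbered D3 and R1 samples deviated with correlations of -0.110 to 0.177, so these numbers were treated as names only. Raw Ct, values below 15, the requirement in hepatocytes and the crossed clones were chosen after seeing the data.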
